A study of Homo sapiens with 8 samples.

Results

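The cytosolic ribosome is built from ribosomal RNA and a fixed set of proteins, and the mRNAs of those proteins are described here across 8 polyA RNA-seq libraries of A-498 cells, which are a human cell line established from a kidney cancer. Genes were taken by name: protein-coding genes whose RefSeq symbol was RPL or RPS followed by a number, with or without a final A, together with the stalk genes RPLP0 to RPLP2 and RPSA. Pseudogenes and S6 kinase genes were left out. This gave 76 genes of the 28395 in the table, 30 of the small subunit and 46 of the large subunit, spread over 21 chromosomes. The study set out to compare A-498 cells with and without a knockout of ANXA4, the gene of the calcium-dependent membrane-binding protein annexin A4. It used 4 derived lines with 2 replicates each. Control line 1 carried non-targeting sgRNA-1 and control line 2 carried non-targeting sgRNA-2, and both are labelled as wild type controls. The lines labelled KO guide 1 and KO guide 2 carried ANXA4 sgRNA-1 and sgRNA-2. All lines were grown for 24 h after seeding of equal cell numbers, and no other treatment is labelled. With 1 line per guide, effects of a guide and of its line cannot be told apart. Nothing states that replicates came from separate cultures, so p-values measure the spread between these samples, which may be technical.

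Ribosomal proteins are needed in near-equal numbers, because each ribosome holds about the same set of them, and cells make them in coordination. Most of their mRNAs in vertebrates start with a C followed by a run of pyrimidines, the 5′ terminal oligopyrimidine (TOP) motif, through which mTOR signalling and LARP1 control their translation. The genes themselves are scattered over the genome, so that a gain or loss of any chromosome touches some members and not others. Several of them, such as RPS19, RPL5, RPL11 and RPL35A, are mutated in Diamond-Blackfan anaemia.

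Libraries held 15784890 to 22631588 reads assigned to genes, and the deposited values were read counts per gene scaled by 1 factor per library. ANXA4 had normalised read counts of 2821 and 3614 in control 1, 3858 and 6773 in control 2, 235.6 and 234.4 in cells labelled KO guide 1, and 3433 and 4142 in cells labelled KO guide 2. It was thus low in 1 of the KO-labelled lines only, and any direction drawn from the label KO guide 2 rests on the label and not on ANXA4 mRNA. Of 10 kidney epithelium and kidney cancer markers, 9 were tested, with PAX8 between 2987 and 4476 and KRT8 between 16747 and 31461. KRT8, KRT18 and CDH16 of that list rose in cells labelled KO guide 2 against the controls, where 11.2% of all tested genes were called. EPCAM, the tenth, stayed under 10 in every library, and CA9, a marker of clear cell kidney cancer, was between 2.07 and 24.8. The 10 markers of leukocytes, endothelium and fibroblasts were all below the filter for testing, and CD3E, CDH5 and LUM were at 0 in every library. Mitochondrially encoded genes took 4.67% to 6.43% of the reads in 6 libraries, 9.05% in control 2 replicate 2 and 13.8% in KO guide 2 replicate 2. Whether this share plays a part in the results below was not tested, except where a value computed without those genes is given.

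The RefSeq promoter table (GRCh38.p14) held start sites for 61 of the 76 genes. The TOP motif was searched on the sense strand as a C at the start site followed by C or T for a run of at least 5 bases. It was present at 46 of 76 annotated start sites (60.5%), which belong to 46 of the 61 genes. Of 22122 other protein-coding start sites, 4.35% had it, and of all 35116 start sites in the table, 4.07%. A run of at least 5 C or T bases within 5 bases of the start site was counted as well. It was present at 64 of the 76 member start sites (84.2%) and at 35.4% of other protein-coding ones. Whether the annotated start is off by a few bases in members without the exact motif was not tested. The following 30-base windows, from 10 bases before the start site to the twentieth base of the transcript, are shown for members with a TOP start on which the comparisons below turn, with the C or T run from the start site in capitals.
RPL35A: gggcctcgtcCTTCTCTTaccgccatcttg
RPL24: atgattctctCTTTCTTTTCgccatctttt
RPSA: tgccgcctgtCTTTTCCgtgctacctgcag
RPL14: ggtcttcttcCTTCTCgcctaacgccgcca
RPL13: gggccgcttcCTTTCCgctcggctgttttc
RPS21: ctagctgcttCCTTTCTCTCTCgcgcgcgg
RPS24: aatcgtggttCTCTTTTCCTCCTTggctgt
RPL38: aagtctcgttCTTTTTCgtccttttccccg
The runs in these windows were 6 to 14 bases long, the longest in RPS24. The windows lie on chromosome 3 for RPL35A (chr3:197950180-197950209, plus strand), RPL24 (chr3:101686699-101686728, minus strand), RPSA (chr3:39406710-39406739, plus strand) and RPL14 (chr3:40457329-40457358, plus strand). The others are RPL13 on chromosome 16 (chr16:89560672-89560701, plus strand, the second of its 3 annotated starts), RPS21 on chromosome 20 (chr20:62387093-62387122, plus strand), RPS24 on chromosome 10 (chr10:78033853-78033882, plus strand) and RPL38 on chromosome 17 (chr17:74203668-74203697, plus strand). Promoter windows of 300 bases, from 250 bases before the start site to 50 after it, were searched on both strands. The ETS-type sequence CCGGAAG occurred at 32.9% of member start sites, 12.8% of other protein-coding start sites and 10.3% of all start sites. In the same order, the YY1-type sequence AAGATGGC occurred at 7.89%, 3.52% and 2.89%, and the E-box CACGTG at 5.26%, 8.35% and 7.26%.

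All 76 genes reached 10 normalised counts in 2 or more libraries, the filter for testing, and 70 of them had a mean value of at least 1000. Between genes, levels were compared per kilobase. Per kilobase of annotated transcript the 70 spanned a ratio of 31.8 from RPL37 to RPS2, but several annotated transcripts have long ends, 7686 bases in RPL37 for a coding sequence of 291. Per kilobase of coding sequence, a length chosen after those ends were seen, the span was 10.4, from 10448 for RPSA to 108948 for RPL41. RPL41, whose coding sequence of 75 bases is the shortest of the set, was followed by RPL28 (51449), RPS20 (48911), RPL13A (46456) and RPL8 (45184). The first place of RPL41 depends on that length. Per kilobase of its 584-base annotated transcript it stood at 13992, rank 34 of the 76. Its mean count was 8171, against a median of 10780 for the 70 genes. The median coding-length level was 23432 for small-subunit and 23559 for large-subunit genes among the 70.

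**Figure D1:**
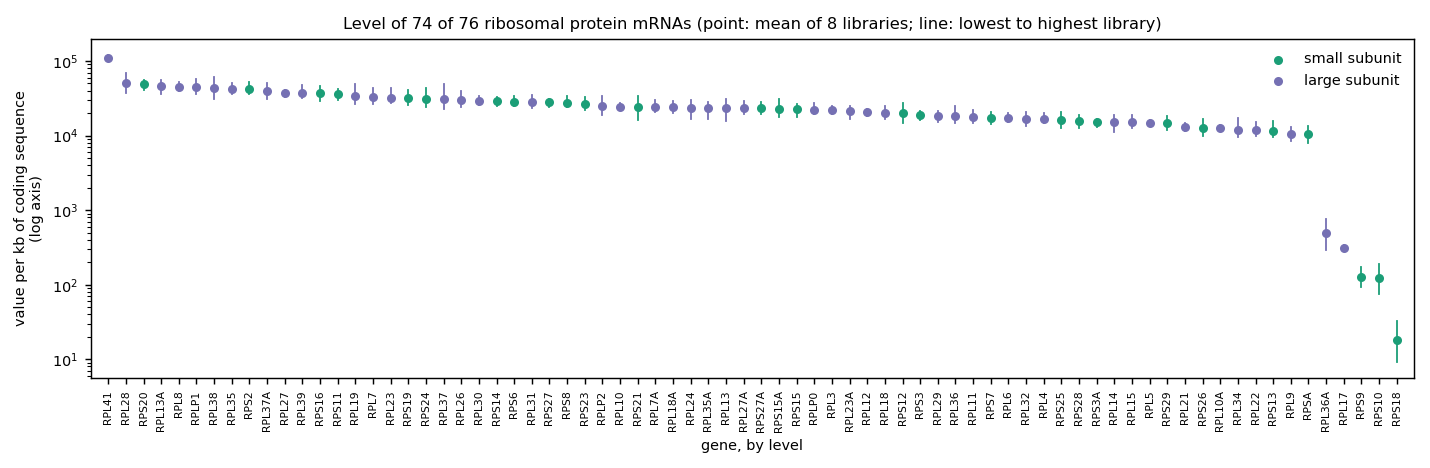
Level of 74 of the 76 ribosomal protein mRNAs as the normalised read count per kilobase of coding sequence on a log axis, with the mean of 8 libraries as a point and the lowest and highest library as the ends of a line. By coding length RPL41, whose coding sequence is the shortest, is highest at 108948. The other high genes form a continuous slope down to RPSA at 10448, and RPL36A, RPL17, RPS9, RPS10 and RPS18 lie far below.

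The counts of the 6 low genes are uncertain as levels, and 5 of them are described. RPS18 had 4.60, 4.16, 6.02, 14.7, 5.48, 12.4, 10.3 and 8.45 normalised counts in the libraries in the order control 1, control 2, KO guide 1 and KO guide 2, each with replicates 1 and 2. RPS10 ranged from 37.4 to 92.9, RPS9 from 54.3 to 101, RPL17 from 162 to 191 and RPL36A from 92.0 to 244. RPL17, RPS10 and RPL36A each lie inside an annotated readthrough gene that joins them to a neighbour, and those readthrough genes had means of 0.357, 0 and 0. How the authors' counting assigned reads shared by overlapping genes or by near-identical copies is not given in the sources used here. RefSeq lists 1989 ribosomal protein pseudogenes, of which 31 had a row in the table, with 0.183% as many reads as the members. Among the higher genes, 2 also overlap a gene with a mean of at least 1000, RPL36 with LONP1 and RPL28 with UBE2S. Without strand-specific counting, reads from bases that both genes share cannot be told apart.

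Paralogs of 8 members were followed because they can replace a member or compete for its reads. RPL36AL, whose product is nearly identical to that of RPL36A, had a coding-length level of 5655 against 501 for RPL36A. RPL22L1 stood at 71.6% of RPL22, RPS27L at 30.2% of RPS27, RPL39L at 12.5% of RPL39, RPL7L1 at 10.1% of RPL7 and RPL26L1 at 8.28% of RPL26. RPL3L, a muscle form, had 4 reads in all 8 libraries together, and RPL10L, a testis form, had 0, against coding-length levels of 21767 for RPL3 and 24504 for RPL10. A count of 0 allows up to 3 reads within counting error.

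The pool of ribosomal protein mRNA shifted from library to library, within lines as well as between them. The members' share of all reads was 4.46% and 4.61% in control 1, 4.87% and 5.24% in control 2, 4.93% and 4.46% in cells labelled KO guide 1, and 5.20% and 5.26% in cells labelled KO guide 2. The ranges of the 4 control libraries and the 4 KO-labelled libraries overlapped. For each gene, the deviation of log2(value + 1) from its mean over 8 libraries was taken. The median deviation of the 76 genes was -0.20 and -0.07 in control 1, 0.00 and 0.21 in control 2, -0.05 and -0.15 in cells labelled KO guide 1, and 0.05 and 0.20 in cells labelled KO guide 2. In control 2 replicate 2, 71 of 76 genes stood above their own mean, and in control 1 replicate 1 and KO guide 1 replicate 2 only 8 did. All other tested genes had a median deviation near 0.01 in control 1 replicate 1, where 51.7% were above their own mean. The libraries with the highest member medians, control 2 replicate 2 and KO guide 2 replicate 2, were also those with the largest mitochondrial shares, and KO guide 2 replicate 1, with a member share of 5.20%, had a mitochondrial share of 6.40%.

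**Figure D2:**
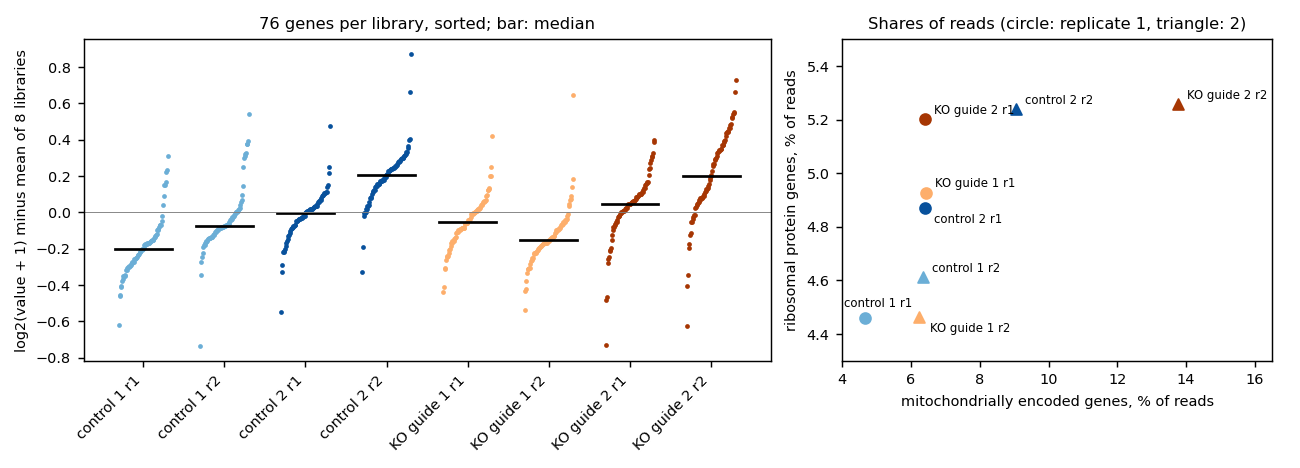
Left, deviation of log2(value + 1) from the gene's own mean for the 76 genes in each library, sorted, with a bar at the median. Right, share of reads held by the 76 genes against the share held by mitochondrially encoded genes, circles for replicate 1 and triangles for replicate 2. Medians run from -0.20 in control 1 replicate 1 to 0.21 in control 2 replicate 2, and KO guide 2 replicate 2 stands alone at a mitochondrial share of 13.8%.

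Between the 4 KO-labelled and the 4 control libraries, no ribosomal protein gene passed the test. ANXA4 did not pass it either, with a log2 difference of -2.10 ± 0.90 (SE, limma adjusted p = 0.407). With limma, 0 of 76 had an adjusted p under 0.05, where 0.235% of the 14040 tested genes did. At an unadjusted p under 0.05 there were 3 members (RPL13, RPL24 and RPL35A), or 3.95%, against 11.5% of all tested genes. EdgeR called 0 (1.32% of tested genes) and DESeq2 called 2, RPL24 and RPL35A (6.06%). Both of those fits held no term for line and took the libraries of a line as independent. With the replicate block limma also called 0, against 0.264%. Log2 differences ranged from -0.54 to 0.43 with a median of 0.05, against 0.00 for the other genes and -0.02 for the members without KO guide 2 replicate 2, and the median standard error was 0.18. RPL35A and RPL24 had the lowest values among the 70 genes with a mean of at least 1000. RPL35A encodes a large-subunit protein and lies on chromosome 3 (chr3:197950190-197956610). It had 8872 and 9381 counts in control 1, 8224 and 9116 in control 2, 7762 and 7123 in cells labelled KO guide 1, and 5452 and 6008 in cells labelled KO guide 2. All 4 KO-labelled libraries were below all 4 controls, with means of 6586 ± 1047 against 8898 ± 495 (SD, n = 4) and a limma log2 difference of -0.45 ± 0.15 (SE, adjusted p = 0.291).

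RPL24, whose protein forms a bridge between the subunits, lies at chr3:101681091-101686718. It had 12324 and 14250 counts in control 1, 11237 and 13499 in control 2, 10535 and 9211 in cells labelled KO guide 1, and 7941 and 10144 in cells labelled KO guide 2. The arms did not overlap, and the limma difference was -0.44 ± 0.17 (SE, adjusted p = 0.347). These were the only 2 members with all KO-labelled libraries below all controls, which held for 5.51% of tested genes. No member had them all above, against 5.11% of tested genes. RPL13 differed by 0.43 ± 0.19 (SE, limma adjusted p = 0.434), but its arms overlapped. RPL5 and RPL11, which with 5S RNA form the particle that binds MDM2, differed by -0.02 ± 0.14 and 0.05 ± 0.18, and RPS19 by 0.07 ± 0.19 (SE). A separate mean for each line, in place of the correlation between libraries of a line, called RPL13 and RPL35A and 10.5% of tested genes, and a limma fit on the 4 line means called 0 members and 0% of tested genes (RPL35A adjusted p = 0.654, RPL13 0.717).

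The cells labelled KO guide 1 had ribosomal protein mRNA slightly below the controls on balance. The median log2 difference of the 76 was -0.08, against 0.00 for the other genes, and 13 of 76 were above 0. It was -0.03 without KO guide 1 replicate 2 and -0.13 without replicate 1. With limma 0 members were called, against 7.01% of tested genes. At an unadjusted p under 0.05 there were 9 (RPS26, RPS21, RPL32, RPL15, RPSA, RPL14 and RPL24 lower, RPL7 and RPL30 higher), against 24% of tested genes, while edgeR called 0 (7.57% of tested genes) and DESeq2 called RPS21, RPSA and RPL7 (10.3%). With the replicate number as a block, 9 members were called, against 24.4% of tested genes. RPS26, RPS21, RPL32, RPL15, RPSA, RPL14, RPL29 and RPL24 then fell and RPL7 rose. RPSA encodes a small-subunit protein also known as the laminin receptor. It had 11291 and 11983 counts in control 1, 8322 and 8994 in control 2, and 7905 and 7033 in cells labelled KO guide 1, so that control 2 was nearer to KO guide 1 than to the other control. Its difference was -0.43 ± 0.11 (SE, limma adjusted p = 0.0598, or 0.00845 with the block). RPS21 had 4982 and 6081 in control 1, 6250 and 7729 in control 2, and 4308 and 4018 in cells labelled KO guide 1, below all controls. It differed by -0.57 ± 0.16 (SE, limma adjusted p = 0.0697, or 0.00342 with the block), and was called by limma when either library of KO guide 2 was left out of the fit (adjusted p = 0.0379 and 0.0375), where 9.28% and 9.34% of tested genes were called.

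The members were higher on balance in cells labelled KO guide 2. Their median log2 difference from both control lines was 0.18, against 0.01 for the other genes, and 58 of 76 were above 0. Without KO guide 2 replicate 2 this median was 0.07. Limma called 2 of 76 members, 2.63%, against 11.2% of tested genes, and 8 had an unadjusted p under 0.05, against 26.7%. RPL13, a large-subunit protein gene on chromosome 16 (chr16:89560657-89566829), had 14206 and 14854 counts in control 1, 9849 and 11504 in control 2, 15395 and 13535 in cells labelled KO guide 1, and 18899 and 19867 in cells labelled KO guide 2. The KO guide 2 libraries were above the other 6. RPL13 rose by 0.64 ± 0.13 (SE, limma adjusted p = 0.0149), and its adjusted p was 0.0583 or 0.0502 without 1 or the other library of control 1 and 0.0585 without KO guide 2 replicate 2.

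RPL35A fell by 0.63 on the log2 scale in cells labelled KO guide 2 (SE 0.12, limma adjusted p = 0.0108), and its adjusted p was 0.0536 without KO guide 2 replicate 1. RPL24, its chromosome 3 companion, differed by -0.51 ± 0.15 (SE, limma adjusted p = 0.0651, or 0.00726 with the block). The block gave 10 calls against 27.4% of tested genes. RPLP2, RPS2, RPS15A, RPL13, RPL23A, RPL19, RPL37 and RPS12 rose in that fit and RPL24 and RPL35A fell. EdgeR called RPL13 and RPL35A (11% of tested genes), and DESeq2 called 6, with RPS2, RPL13, RPL23A and RPS12 up and RPL24 and RPL35A down (13.6%). RPS9 and RPS10, 2 of the low-count genes, stood at -0.38 ± 0.22 and -0.58 ± 0.31 (SE), with neighbours at 0.20 and -0.08.

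The 2 control lines also differed from each other. In control 2 against control 1 the member median was 0.24, against 0.00 for the other genes, and 65 of 76 genes were above 0. Without control 2 replicate 2, whose mitochondrial share was 9.05%, the median was 0.16. Limma, edgeR and DESeq2 each called 0 members, where they called 2.13%, 2.04% and 4.67% of tested genes. At an unadjusted limma p under 0.05 there were 9 members, against 15.5% of tested genes. The 3 with the smallest p were RPSA (-0.43 ± 0.13, SE, limma adjusted p = 0.149), RPL13 (-0.45 ± 0.15, adjusted p = 0.167) and RPL23A (0.35 ± 0.13, adjusted p = 0.225). With the replicate block, RPL13 and RPSA fell and RPL38 rose (3 calls, against 12.5% of tested genes). RPL38, a large-subunit protein known in mice for its role in translating Hox mRNAs, had 6400 and 8315 counts in control 1 and 9089 and 11591 in control 2, without overlap. All differences from both controls above are therefore differences from the mean of 2 unlike lines, and both KO-labelled lines are set against the same 4 control libraries.

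The widest member differences lay between the KO-labelled lines, by median and SD of the 5 comparisons of lines. In KO guide 2 against KO guide 1 the member median was 0.26, against -0.01 for the other genes, and 59 of 76 were above 0. Limma called 1 member, RPS21 (1.32%), against 6.94% of tested genes, as did edgeR (6.55%), and DESeq2 called RPS26, RPL28 and RPS21 (10.3%). RPS21 is a small-subunit protein gene on chromosome 20 (chr20:62387103-62388520). It had 4308 and 4018 counts in cells labelled KO guide 1 and 6256 and 8500 in cells labelled KO guide 2, and rose by 0.81 ± 0.19 (SE, limma adjusted p = 0.0398). The call was lost without either library of control 1, without either library of KO guide 1 and without KO guide 2 replicate 2, with adjusted p from 0.0668 to 0.23, and without the filter on low values. Without KO guide 2 replicate 1 limma called 4 members (RPS13, RPS26, RPS21 and RPL37), against 7.14% of tested genes. RPL28 (0.67 ± 0.20, adjusted p = 0.083) and RPS26 (0.52 ± 0.16, adjusted p = 0.0852) had the next smallest p. With the replicate block 18 members were called, against 24.5% of tested genes. Of these, 16 rose, among them RPS21, RPS26, RPS19, RPL28 and the chromosome 3 genes RPL32 and RPL14, and RPL35A and RPL7 fell, where 10.5% of tested genes rose and 14% fell. At an unadjusted p under 0.05, 18 members (23.7%) stood against 24.2% of tested genes.

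Part of the spread among members in the comparisons of lines went with that of their neighbours in the genome. Each member was set beside the median difference of the 25 tested non-member genes on either side of it in gene order. Across the 70 genes with a mean of at least 1000, the member's log2 difference correlated with that of its neighbours at r = 0.83 for KO against control, 0.80 for KO guide 1, 0.83 for KO guide 2, 0.83 for control 2 against control 1 and 0.78 for KO guide 2 against KO guide 1. Over all 76 members, low-count genes included, r was lower, at 0.65, 0.69, 0.68, 0.77 and 0.76 in the same order. These values describe genes and not replicates, since nearby members share neighbours and all points share libraries, and they carry no test. Subtracting the neighbours' median lowered the SD of the 70 differences from 0.17 to 0.10 (KO guide 1 against controls), from 0.21 to 0.12 (KO guide 2 against controls) and from 0.20 to 0.11 (control 2 against control 1). Between replicates within lines, where the line is the same, r was 0.19 and the SD was 0.11 before and 0.12 after. Over the 12 chromosomes with at least 3 members of mean 1000 or more, the median difference of the members on a chromosome followed that of its other tested genes with r = 0.98 and 0.84 for KO guides 1 and 2 against the controls, 0.88 for control 2 against control 1, and -0.04 between replicates. Single members departed from their neighbours, such as RPL28 at 0.67 between the KO-labelled lines with neighbours at 0.11. DNA copy number was not measured in these files, and its part in these differences was not tested.

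**Figure D3:**
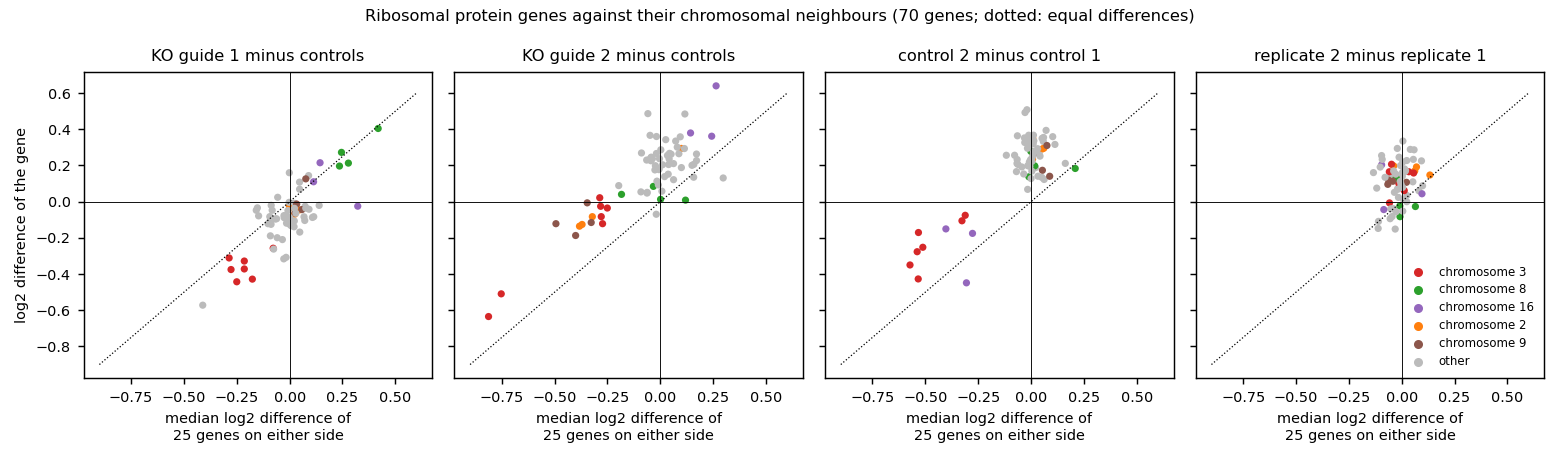
Log2 difference of each of 70 ribosomal protein genes against the median log2 difference of the 25 tested genes on either side, for 3 comparisons of lines and for replicate 2 against replicate 1, with the dotted line marking equal values. Members rise with their neighbours in the comparisons of lines (r of 0.80, 0.83 and 0.83 over the 70 genes), with a median of 0.21 above the dotted line in KO guide 2 and 0.24 in control 2, and less so between replicates (r of 0.19).

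Chromosome 3 carried 7 members. Control 1 had the highest values of all 4 lines for RPL15 and RPSA in both replicates. RPL15, at chr3:23916545-23924631, had 10732 and 11411 counts in control 1, 8026 and 9395 in control 2, 7955 and 7665 in cells labelled KO guide 1, and 8812 and 9725 in cells labelled KO guide 2. The members RPL32, RPL15, RPSA, RPL14 and RPL29 differed by -0.17 to -0.43 between control 2 and control 1, and their neighbours by -0.51 to -0.57. The median of the 7 members was -0.25 and that of 774 other tested genes on chromosome 3 was -0.44, while the median of all 76 members was 0.24. In cells labelled KO guide 2 these 5 genes stood at -0.12 to 0.02 against both controls, with neighbours at -0.25 to -0.29. RPL24 and RPL35A, further along the chromosome, stood at -0.51 and -0.63, with neighbours at -0.75 and -0.81. Less their neighbours' median, RPL24 was 0.24 and RPL35A 0.18 in that comparison, close to the median of the 70 genes (0.21 less neighbours). RPL39L, the RPL39 paralog on the same chromosome, fell by 1.17 on the log2 scale in cells labelled KO guide 2 (SE 0.14, limma adjusted p = 0.00236), with neighbours at -0.70.

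**Figure D4:**
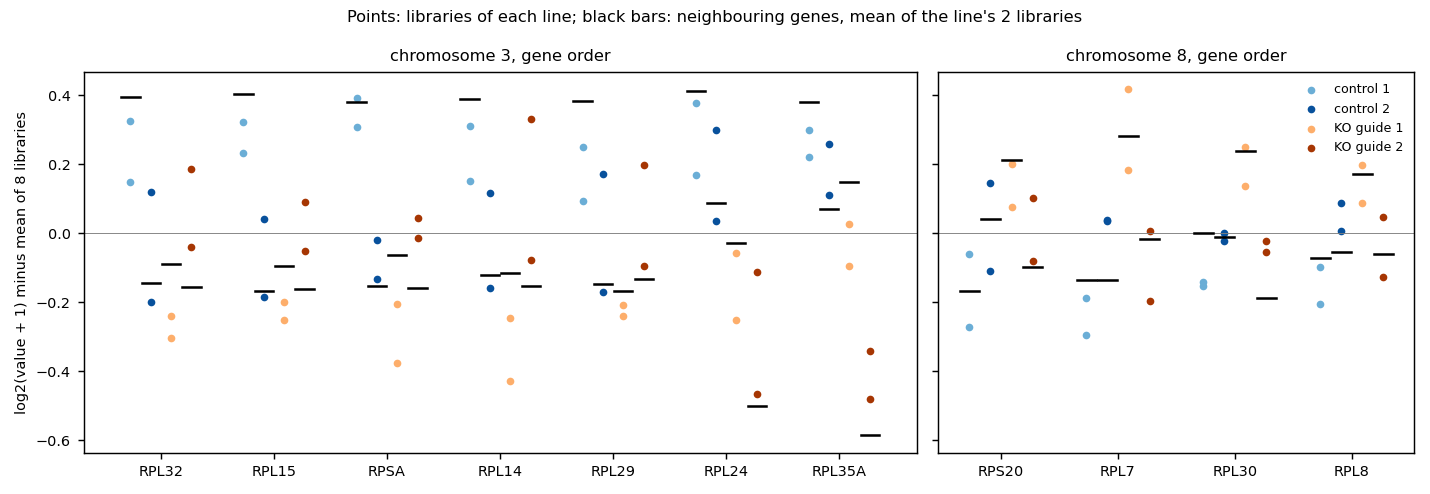
Deviation of log2(value + 1) from the gene's mean over 8 libraries for members on chromosome 3 and chromosome 8 in gene order, with the 2 libraries of each line as points and the line's mean of the neighbouring-gene medians as a black bar. On chromosome 3 control 1 is highest for RPL15 and RPSA, and RPL24 and RPL35A are lowest in KO guide 2 by line mean. On chromosome 8 KO guide 1 is highest for RPL7, RPL30 and RPL8.

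On chromosome 8 the pattern involved cells labelled KO guide 1. RPL7, a large-subunit protein, had 19820 and 21336 counts in control 1, 24962 and 24909 in control 2, 32503 and 27638 in cells labelled KO guide 1, and 24423 and 21245 in cells labelled KO guide 2. Both KO guide 1 libraries were above the other 6. The differences of KO guide 1 from both controls were 0.21 for RPS20, 0.40 for RPL7, 0.27 for RPL30, whose yeast counterpart represses its own splicing, and 0.20 for RPL8, and the neighbours stood at 0.28, 0.42, 0.25 and 0.24. The median of the 4 was 0.24 and that of 497 other tested genes on chromosome 8 was 0.29. None of the 4 passed limma's threshold, and with the replicate block RPL7 did (adjusted p = 0.0225).

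Members on some other chromosomes were also set beside their neighbours or beside the other genes of the chromosome. On chromosome 16, RPS2, RPS15A and RPL13 were lower in control 2 than in control 1 by 0.18, 0.15 and 0.45 in size (log2 differences of -0.18, -0.15 and -0.45), with neighbours at -0.28, -0.40 and -0.31. In cells labelled KO guide 2 against both controls they stood at 0.36, 0.38 and 0.64, with neighbours at 0.24, 0.14 and 0.26. RPL13 was 0.38 above its neighbours, and limma on the values less neighbours gave it an adjusted p of 0.0963. On chromosome 9, RPS6 (the S6 kinase substrate), RPL35, RPL12 and RPL7A had a median of -0.12 in cells labelled KO guide 2 against both controls, with 595 other tested genes of the chromosome at -0.39. On chromosome 2, RPS7, RPS27A, which encodes a ubiquitin fusion, and RPL31 stood at -0.14, -0.13 and -0.08 with neighbours at -0.38, -0.37 and -0.32, and RPL37A at 0.29 with neighbours at 0.10. RPS21 on chromosome 20 was at -0.57 in cells labelled KO guide 1 with neighbours at -0.41, and its 0.81 between the KO-labelled lines compares with 0.41 for its neighbours. Chromosome 19, with 12 members the largest group, stood at 0.23 in cells labelled KO guide 2 with 915 other tested genes at 0.09. The median of all 76 members in that comparison was 0.18.

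**Figure D5:**
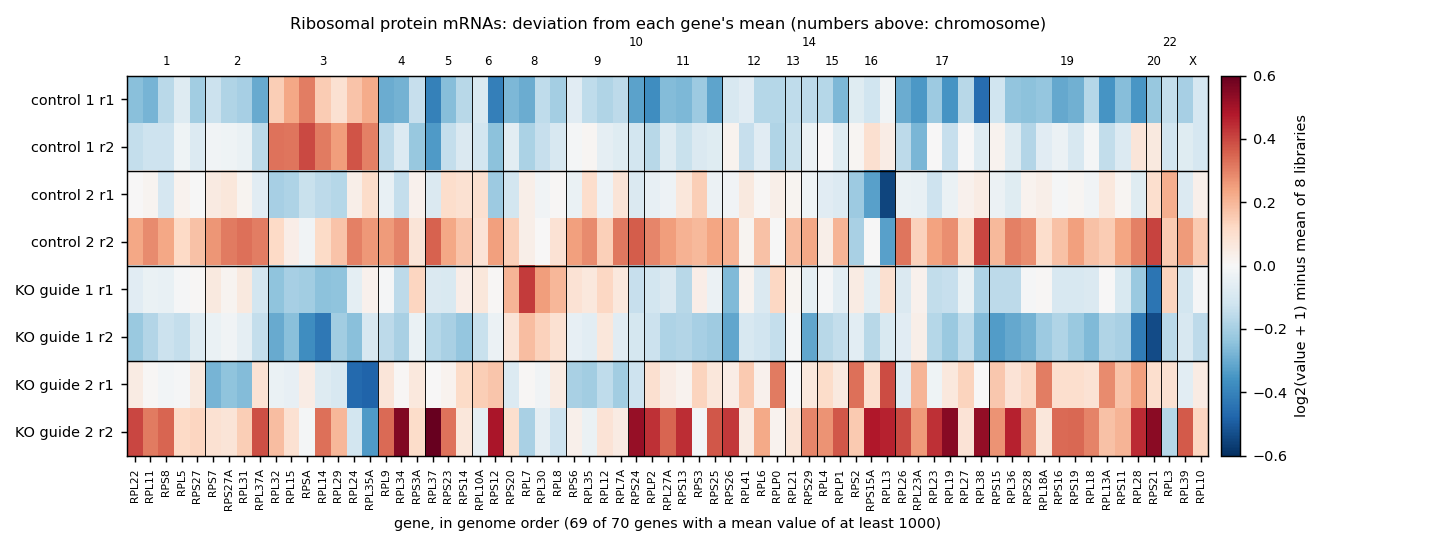
Deviation of log2(value + 1) from the gene's mean over 8 libraries for 69 of the 70 genes in genome order (columns, chromosome numbers above) in the 8 libraries (rows), red for above and blue for below. Whole rows shift together. Control 2 replicate 2 and KO guide 2 replicate 2 are mostly red, and control 1 replicate 1 and KO guide 1 replicate 2 mostly blue. Blocks depart from their row, among them those on chromosomes 3, 8, 9 and 16 and part of chromosome 2.

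Besides the blocks, the members moved together from library to library. Over the 8 libraries the median correlation between 2 of the 70 genes was 0.54, and 85.3% of pairs were above 0. For all tested genes it was 0.00, and for tested genes with a mean of at least 1000 it was 0.01. Among small-subunit members the median was 0.62 and among large-subunit members 0.48. A first principal component held 64.2% of the variance of the 70 genes. With each gene's neighbours subtracted, values are given for the 70 members only. The median pairwise correlation was then 0.79 and 96.6% of pairs were above 0. These correlations share the same 8 libraries and the same scaling factors, and they fell to 0.38 when libraries were scaled to equal totals and stood at 0.58 when totals without mitochondrial genes and members were used.

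The correlation of each gene with the mean of the other 69 had a median of 0.86, and 37 of 70 were over 0.8, against 4.89% of other genes with a mean of at least 1000. RPL27A (0.99), RPS25 (0.99) and RPS19 (0.98) were closest to the mean of the rest. The genes furthest from it were RPL35A (-0.32), RPL7 (-0.11), RPL30 (-0.08), RPSA (-0.06) and RPL24 (0.00), all on chromosomes 3 and 8. With neighbours subtracted, RPL35A stood at 0.90, RPL24 at 0.98, RPSA at 0.81 and RPL30 at 0.55, and RPL7 at 0.20. The count over 0.8 was then 53 of 70, and no such count is given for other genes with neighbours subtracted. RPL41 (0.26) was also low after subtraction.

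Outside the name rule, 3 further genes of the small subunit are described. RPS4X, which encodes a small-subunit protein, correlated with the member mean over the 8 libraries at 0.94. FAU, which encodes a small-subunit protein fused to a ubiquitin-like protein, stood at 0.93, and RACK1, the WD40 scaffold of the small subunit, at 0.83. Spread over the 8 libraries was modest for the members. The SD of log2 values had a median of 0.20 for the 70 genes and 0.23 for other genes with a mean of at least 1000. It was smallest for RPL17 (0.08), RPL5 (0.09), RPL41 (0.09), RPL21 (0.11) and RPL10A (0.11), and largest for the low-count genes RPS18 (0.60), RPS10 (0.45) and RPL36A (0.42), followed by RPS21 (0.38) and RPL37 (0.37).

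Replicates of a line also differed across the whole set. From replicate 1 to replicate 2 the median log2 difference of the 76 was 0.14 in control 1, 0.23 in control 2, -0.11 in cells labelled KO guide 1 and 0.22 in cells labelled KO guide 2. It was positive for 69, 68, 10 and 57 genes in that order, and the other tested genes had medians between 0.00 and 0.01. Over the 4 lines, limma called 2 members (RPS24 and RPL36A, both higher in replicate 2), or 2.63%, against 17.6% of tested genes. EdgeR called the same 2 (17.6%) and DESeq2 called RPS24, RPL23, RPL38, RPL34 and RPL36A (16.6%). At an unadjusted p under 0.05 there were 15 members, all higher in replicate 2, against 33.9% of tested genes in either direction and 17.1% higher. RPS24, a small-subunit protein gene, had 9711, 11393, 11014 and 11112 counts in replicate 1 of the 4 lines in the order above and 11230, 15601, 11258 and 17379 in replicate 2. It was higher in replicate 2 in all 4 lines, by a mean of 0.33 ± 0.10 (SE, limma adjusted p = 0.0405). RPL36A rose by 0.62 ± 0.18 (SE, limma adjusted p = 0.032) on 89 reads or more per library, and its difference was 0.36 without KO guide 2 replicate 1. Both calls were lost without any 1 library of control 1, control 2 or KO guide 2, where 0 members and 5.03% to 10.3% of tested genes were called. Without either library of KO guide 1, 16 members (21.1%) were called, all higher in replicate 2, against 16% and 16.2% of tested genes.

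Within the set, replicate differences were higher for genes with shorter coding sequences. In cells labelled KO guide 2, the 36 genes with a coding sequence up to the median of 453 bases had a median difference of 0.30 and the 34 longer ones 0.10. In control 2 these medians were 0.28 and 0.17, in control 1 0.16 and 0.11, and in cells labelled KO guide 1 -0.10 and -0.14. Spearman's rho between coding length and the replicate difference across the 70 genes was -0.36, -0.50, -0.33 and -0.47 in control lines 1 and 2 and KO guides 1 and 2, and across 3566 other genes with a mean of at least 1000 it was -0.27, -0.38, -0.09 and -0.27. RPL37, of 291 coding bases, had 8734 and 14441 counts in replicates 1 and 2 of KO guide 2 and 8206 and 11134 in control 2. RPL3, of 1209 coding bases, the large-subunit protein that reaches toward the peptidyl transferase centre, had 27843 and 23214 in KO guide 2 and 30395 and 29140 in control 2. RPLP0, the base of the stalk, had 26038 and 21306 in KO guide 2. RPL41 went against the trend, with 9079 and 8442 in KO guide 2 although it is the shortest.

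Other genes of the ribosome's supply chain were counted from fixed lists. Between KO and control, limma called 0 genes of every list, where 0.235% of tested genes were called. With the replicate block it also called 0, against 0.264%. Over all tested genes, 7.01% were called in KO guide 1 and 11.2% in KO guide 2 against the controls, or 24.4% and 27.4% with the block. Among 20 translation factors and similar genes with a TOP start, 0 were called in either KO-labelled line against the controls, with medians of 0.06 and 0.10. With the replicate block 3 rose and 1 fell in KO guide 1 and 1 rose in KO guide 2. Their median pairwise correlation was 0.15, against 0.54 for the 70 members. Of 18 regulators of the translation of TOP mRNAs, 1 rose and 1 fell in cells labelled KO guide 2. EIF4EBP1, the mTOR-regulated inhibitor of eIF4E, rose by 0.57 ± 0.13 (SE, limma adjusted p = 0.0277, chromosome 8, neighbours at 0.49). CNBP, which binds TOP mRNAs, fell by 0.63 on the log2 scale (SE 0.13, limma adjusted p = 0.0168, chromosome 3, neighbours at -0.81). With the block 2 rose and 4 fell.

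Of 59 ribosome assembly factors, 3 fell in cells labelled KO guide 1 (NOP56, GNL3 and RRP1) and 0 rose, against 7.01% of tested genes. In cells labelled KO guide 2, EIF6 and MAK16 rose and LSG1, NMD3 and PNO1 fell, against 11.2% of tested genes. LSG1, the GTPase that releases NMD3 from the new large subunit, fell by 0.85 on the log2 scale (SE 0.11, limma adjusted p = 0.00314), and NMD3, the export adaptor, fell by 0.53 (SE 0.12, limma adjusted p = 0.0208). Both lie on chromosome 3, with neighbours at -0.78 and -0.49. EIF6, which keeps the subunits apart until release, rose by 0.68 ± 0.12 (SE, limma adjusted p = 0.00864) in cells labelled KO guide 2 and by 1.10 ± 0.14 (adjusted p = 0.00449) between the KO-labelled lines. Of 15 tested genes for RNA polymerase I and its factors, POLR1E fell in both KO-labelled lines against the shared controls and TAF1B in KO guide 2. Among the assembly and polymerase I genes named, neighbours' values are given only for LSG1 and NMD3. With the block, 2 assembly factors rose and 9 fell in KO guide 1, 6 rose and 7 fell in KO guide 2, and 6 polymerase I genes fell in KO guide 2, against 24.4% and 27.4% of tested genes in the 2 comparisons.

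The 75 mitochondrial ribosomal protein genes are a separate set made for the organelle's own ribosome. In cells labelled KO guide 1, 5 of them fell and 0 rose, against 7.01% of tested genes, with a median of -0.25 against -0.08 for the cytosolic set. MRPS26, on chromosome 20 like RPS21, fell by 0.93 on the log2 scale (SE 0.12, limma adjusted p = 0.00381, neighbours at -0.59). In cells labelled KO guide 2, 1 rose and 4 fell, against 11.2%, with a median of 0.08. With the block the counts were 1 up and 23 down in KO guide 1 and 8 up and 9 down in KO guide 2, against 24.4% and 27.4% of tested genes. Their median pairwise correlation over the 8 libraries was 0.33. MDM2, which RPL5 and RPL11 bind, ranged from 2437 to 3165 and was not called in any comparison.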

How the data were processed

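PolyA RNA of 8 A-498 libraries was sequenced. Per the submitters' processing notes, fastp 0.23.2, HISAT2 2.2.1, featureCounts 2.0.1 and DESeq2 2.11.40.8 were used with hg38 (GRCh38), with no roles or order given, and per the file headers reads were counted with featureCounts. Annotation and strand use are not given in the sources used here. The deposited signal is a linear normalised read count, 1 column per library. Of the values above 0, 100% were whole reads divided by 1 factor per library within a relative tolerance of 1e-06 (largest deviation 8.45e-10). No molecular identifiers are named, so limits from a count of 0 cover counting error only.

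Symbols, coordinates and start sites came from RefSeq (GRCh38.p14, matching the build named in the notes), with 27745 of 28395 identifiers matched. Coding and transcript lengths came from GENCODE 29. Limma 3.58.1 in R 4.3.3 was run on log2(value + 1) for the 14040 genes that reached 10 in 2 or more libraries, adjusted by Benjamini-Hochberg over all of them, with a call at adjusted p under 0.05. Differences are on that scale. KO against control used duplicateCorrelation by line (0.33), and single lines were compared in a joint model of line means. edgeR 4.0.16 (quasi-likelihood) and DESeq2 1.42.0 were run on the recovered reads as alternatives. For KO against control these alternatives held no term for line. Fits were tested on simulated data in which lines differed only by the changes put in, so variation between lines was not covered. There a 1.5-fold change was called in 58% of changed genes for KO against control. It was called in 4% to 26% for the other comparisons of lines and in 40% between replicates. The limit of 1000 and the coding length were chosen after values were seen. Members and lists were chosen with earlier results of these data known.

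Replicate numbers come from the sample titles. Differences between replicates correlated between lines at r = 0.285 to 0.501 in all 6 pairs of lines, above the limit of 0.1, so the numbers were taken as pairs and fits with the replicate as a block are given where they change a call.

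Genes named were ANXA4, the called members of each comparison (or the 3 with the smallest p), the 5 extremes of level and of SD, members on chromosomes 3 and 8, RPL5, RPL11, RPS19, 8 paralog pairs and up to 4 called genes per list. Members on chromosomes 2, 9, 16 and 20 and the examples of replicate difference were named after their values were seen. Some genes are not reported here.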

Additional observations from a re-analysis of the deposited data

Results flagged for a closer look

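In 3 measures, 1 library of the line labelled KO guide 2 stood apart from the other KO-labelled libraries. RPS24 had 17379 counts in KO guide 2 replicate 2, with the other 3 KO-labelled libraries at 11014 to 11258. RPL37 had 14441 in the same library, with the others at 7741 to 8734. The mitochondrial share of reads was 13.8% there, with the others at 6.23% to 6.43%. A gap of this size to the nearest library, relative to the group's range, is met by chance in about 1 of 20 groups, and 64 groups were examined, of which 3 met it, all through 1 library.

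RPS21 differed between the KO-labelled lines by 0.81 on the log2 scale (limma adjusted p = 0.0398), which tests a difference between 2 lines.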

How the results depend on the processing

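With each gene's neighbours subtracted, 4 named differences turned sign and none of these was called: RPL24 between KO and control to 0.0728 (limma adjusted p = 0.918), RPL7 in KO guide 1 to -0.0144 (0.969), RPL35A in KO guide 2 to 0.18 (0.512) and RPSA between the control lines to 0.11 (0.896). In that setting 0 members were called in KO guide 2 against controls (5.83% of tested genes) and 0 between the KO-labelled lines (2.77%). Between replicates 5 were called, or 6.58%, against 18.3% of tested genes. DESeq2 called 2 members for KO against control (6.06% of tested genes), in a fit without a term for line. It called 3 and 6 for KO guides 1 and 2 against the controls (10.3% and 13.6%). For KO guide 2 against KO guide 1 it called 3 (10.3%), and between replicates 5 (16.6%). A separate mean per line called 2 for KO against control (10.5% of tested genes) and a fit on line means called 0 (0%). With the replicate block the calls were 9 and 10 for KO guides 1 and 2 against the controls (24.4% and 27.4% of tested genes). Control 2 against control 1 gave 3 (12.5%) and KO guide 2 against KO guide 1 gave 18 (24.5%). KO against control gave 0 (0.264%), as without the block. Without the filter on low values 0 members were called between the KO-labelled lines (3.28% of tested genes) and 1 between replicates (9.77%). Equal totals, or totals without mitochondrial genes and members, gave 1 between replicates (19% and 18.1% of tested genes). With 1 library left out at a time, calls ranged from 0 to 0 for KO against control, 0 to 1 (KO guide 1) and 1 to 3 (KO guide 2) against the controls, 0 to 0 for control 2 against control 1, 0 to 4 for KO guide 2 against KO guide 1 and 0 to 16 between replicates. The median log2 difference of the members between KO and control ranged from -0.02 (without KO guide 2 replicate 2) to 0.12 in those runs, that of KO guide 1 from -0.13 to -0.03, that of KO guide 2 from 0.07 to 0.24 and that of control 2 against control 1 from 0.16 to 0.34. Equal totals lowered the median pairwise correlation from 0.54 to 0.38. The ratio of the highest to the lowest member level was 31.8 per transcript length, 10.4 per coding length and 14.7 with no length. The cause of these changes was not tested, except that the neighbour setting removes the neighbours' difference by construction and that leaving out a library leaves fewer samples.

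With 2 libraries per line, the median standard error of a member was 0.14 for a single line against the controls, and a difference that missed the threshold is not shown to be absent. The lone library of a line, where its pair was left out, is assumed to vary like the others.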
